A study of Mus musculus with 6 samples.

Results

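The members of the SLC25 family of mitochondrial carriers were followed in mouse Th17 cells labelled as knockout for pyruvate dehydrogenase (PDH) and in WT cells. Every gene whose symbol begins with Slc25a and a digit was taken, apart from the citrate carrier gene Slc25a1, which gave 40 of the 15452 genes in the count table. Of these 40 members, 39 are genes and 1, Slc25a5-ps, is annotated as a pseudogene of Slc25a5. A further 7 symbols of the annotation have no row in the count table (Slc25a2, Slc25a18, Slc25a21, Slc25a31, Slc25a34, Slc25a41 and Slc25a54). Every row of that table has at least 10 counts in at least 3 libraries. All 40 members passed the filter on low counts and were tested.

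RNA-seq libraries were made from 3 PDH knockout and 3 WT samples. Knockout cells carried floxed PDH alleles and CD4 Cre, a recombinase under Cd4 control sequences that acts from the CD4-expressing stage of T cell development on, and WT cells carried the floxed alleles without Cre. Naive CD4+ T cells of spleen and lymph node, taken by magnetic sorting, were kept for 3 days with plate-bound anti-CD3 (5 µg/mL), anti-CD28 (1 µg/mL), IL-6 (30 ng/mL), TGFβ (2 ng/mL) and anti-IFNγ (5 µg/mL), which steers them towards Th17 cells, the helper cells that make interleukin 17. Effects of Cre itself and of the deletion cannot be told apart, because WT cells lack the recombinase. The labels give neither the age nor the sex of the mice nor whether replicates came from separate animals, so p-values measure the spread between these libraries.

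Members of this family sit almost all in the inner mitochondrial membrane, where each passes a defined set of small molecules between cytosol and matrix, usually by exchange. They carry ADP and ATP, phosphate, the dicarboxylates and amino acids of the malate-aspartate shuttle, coenzymes, nucleotides, iron and acylcarnitines. In activated T cells such traffic links the TCA cycle and respiration to biosynthesis in the cytosol. PDH makes acetyl-CoA, from which matrix citrate is built. The comparison asks which of the other carriers differ in transcript level in cells labelled as PDH knockout.

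Library totals ran from 33802154 to 40407124 counts. Pdha1, the gene of the PDH E1 alpha subunit, was at 193 ± 6.33 CPM in PDH knockout and 248 ± 10.2 CPM in WT (SD, n = 3 each; adjusted p = 0.000871). The sample titles spell the floxed allele PHD where the protocol spells it PDH, which PDH gene was floxed is not stated, and a count over a whole gene need not show the loss of an exon. In PDH knockout replicate 2 a single unnamed entry took 4.95% of the counts, against at most 0.215% in the other libraries. Summed over 6 T cell markers, levels were 1303 to 1411 CPM in PDH knockout and 1806 to 1855 CPM in WT, and over 6 Th17 markers 592 to 752 CPM in PDH knockout and 902 to 1210 CPM in WT. The 9 B cell markers summed to 66.1, 142 and 214 CPM in PDH knockout replicates 1 to 3 and to 67.9, 127 and 56.5 CPM in WT replicates 1 to 3. The 6 myeloid markers summed to 5.4 to 9.82 CPM in PDH knockout and 9.33 to 24.6 CPM in WT, none of the 6 erythroid markers has a row in the table, and 3 of 4 NK markers have none (the other, Eomes, was at 2.44 to 5.18 CPM in PDH knockout and 3.68 to 5.33 CPM in WT). The 2 CD8 markers summed to 5.58 to 14.9 CPM in PDH knockout and 8.68 to 11.3 CPM in WT, and the 3 of 4 dendritic cell markers with a row to 1.45 to 6.92 CPM in PDH knockout and 0.506 to 2.49 CPM in WT. The part of other cell types in the results was not tested beyond leaving out the 3 libraries with more B cell markers (PDH knockout replicates 2 and 3 and WT replicate 2), and in bulk RNA fewer cells of a type and less RNA per cell cannot be told apart.

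Levels below are CPM, counts per 1000000 after scaling of the libraries, and are listed for replicates 1 to 3 of each group. Changes are log2 fold changes of PDH knockout over WT with their standard error. A gene is called where edgeR's quasi-likelihood test gave a p below 0.05 after adjustment across the whole table by Benjamini and Hochberg.

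In PDH knockout cells 6 members were called higher and 15 lower, and 19 were not called. The called members make up 52.5% of the family, against 47.6% of all 15361 tested genes. The PDH knockout and WT values did not overlap in 23 members, 57.5%, against 58.2% of all tested genes. Split by direction, 15.0% of members were called higher against 23.1% of all genes, and 37.5% were called lower against 24.5% of all genes. The split moves with the scaling: upper-quartile factors gave 8 members higher and 11 lower, and scaling by library totals alone gave 7 higher and 11 lower. The median log2 fold change of the members was -0.14, beside 0.01 over all tested genes, and the median size of change, without sign, was 0.27, beside 0.33 over all tested genes. Against a fold change of 1.2 instead of no change, 10 members passed, 4 higher (Slc25a36, Slc25a42, Slc25a45 and Slc25a48) and 6 lower (Slc25a10, Slc25a11, Slc25a12, Slc25a23, Slc25a24 and Slc25a39), which is 25.0% of the family and 25.9% of all tested genes. Without the 3 libraries with more B cell markers, PDH knockout replicate 1 is alone in its group, so log2 fold changes are given for that setting. Their median was -0.22 over the members and 0.0 over all genes tested in that setting.

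**Figure D1:**
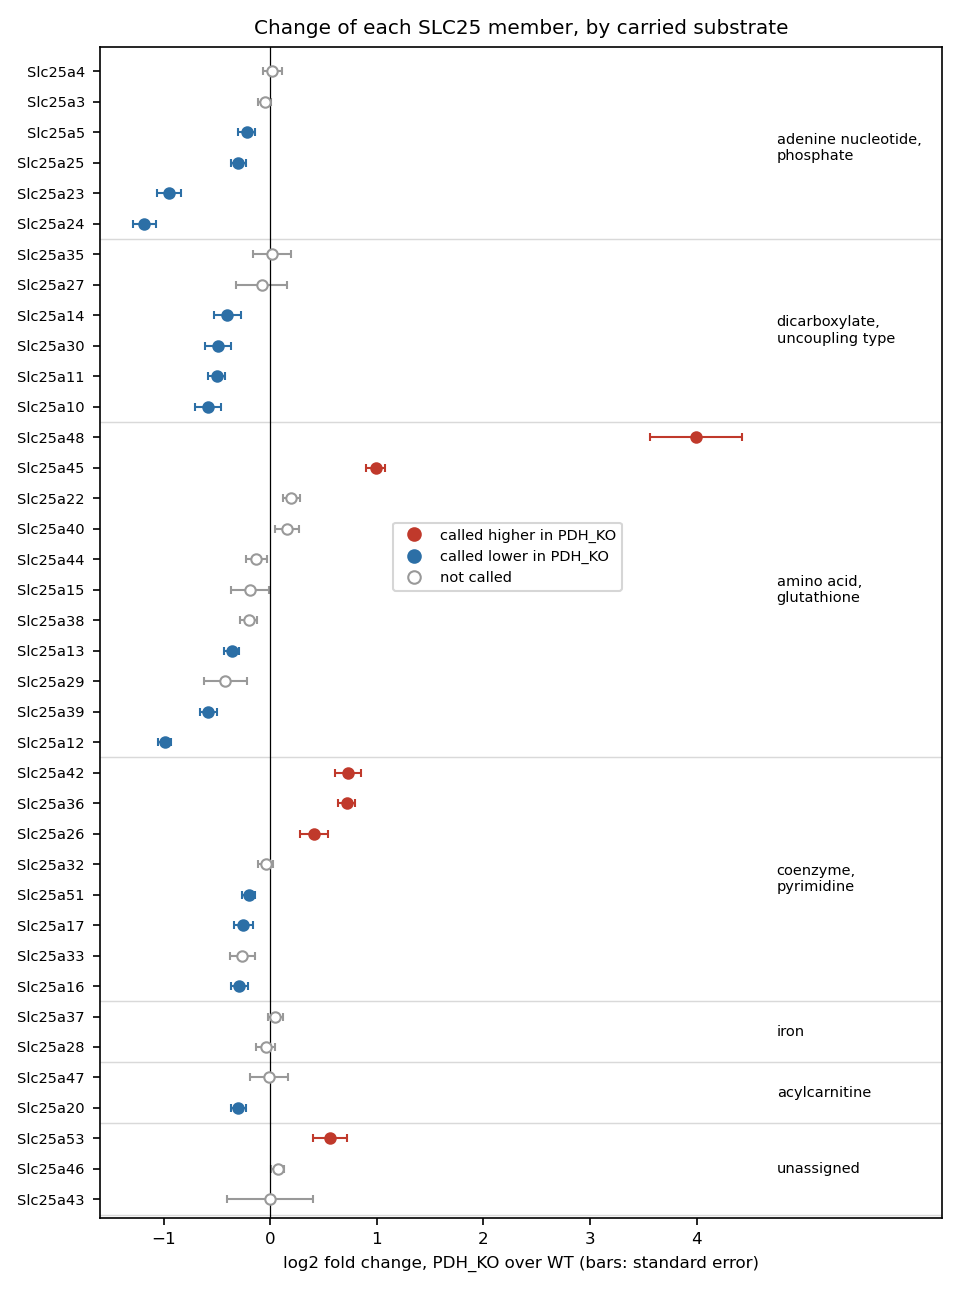
Log2 fold change of PDH knockout over WT with its standard error for 38 SLC25 genes (horizontal axis), grouped by the kind of substrate, with filled points for called genes and open points for the others. Every called gene of the adenine nucleotide and phosphate group and of the dicarboxylate group lies left of 0. The called increases run from 0.41 for Slc25a26 to 3.99 for Slc25a48.

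Per kilobase of transcript, the family was led in PDH knockout and in WT by the carriers of oxidative phosphorylation. Slc25a5 stood at 570 CPM per kb in PDH knockout and 667 CPM per kb in WT, Slc25a3 at 252 CPM per kb in PDH knockout and 261 CPM per kb in WT, and Slc25a4 at 144 CPM per kb in PDH knockout and 141 CPM per kb in WT. The next were Slc25a17, at 43.3 CPM per kb in PDH knockout and 51.6 CPM per kb in WT, and Slc25a39, at 40.3 CPM per kb in PDH knockout and 60.2 CPM per kb in WT. At the low end stood Slc25a43, an orphan carrier, at 0.366 CPM per kb in PDH knockout and 0.369 CPM per kb in WT, and Slc25a48, at 0.461 CPM per kb in PDH knockout and 0.0280 CPM per kb in WT. Slc25a12 ranked 18 of 40 by level per kb in PDH knockout and 8 of 40 in WT.

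**Figure D2:**
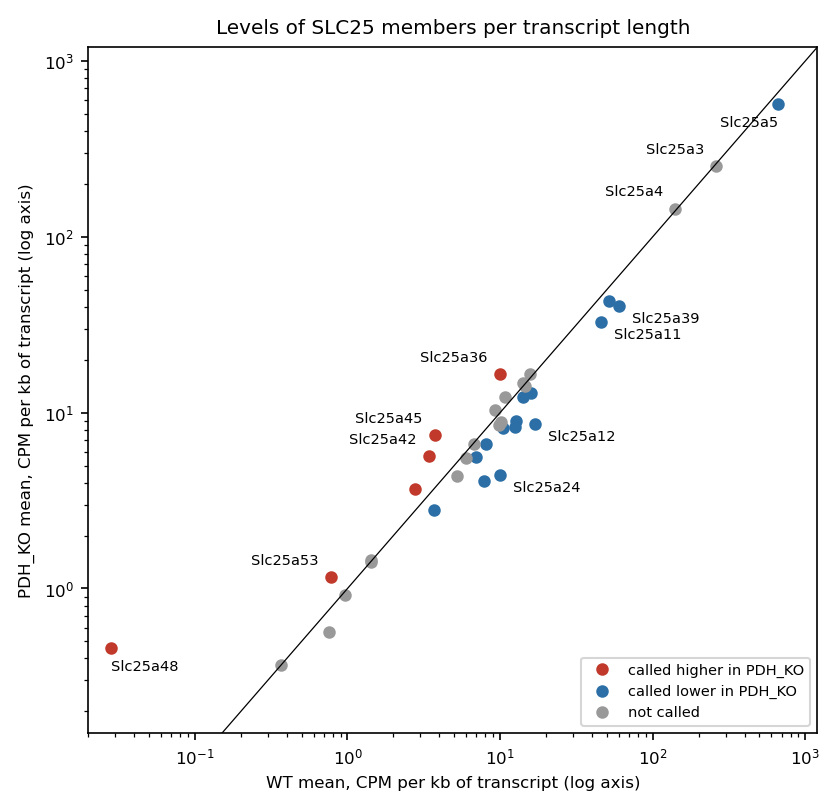
Mean level per kilobase of the longest annotated transcript in PDH knockout (vertical, log axis) against WT (horizontal, log axis) for 38 SLC25 genes, with the line of equal levels. Slc25a5, Slc25a3 and Slc25a4 stand apart at the top at 144 to 570 CPM per kb in PDH knockout, and Slc25a48 lies farthest from the line.

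Summed over all 40 members, the family took 2482, 2377 and 2334 CPM in the PDH knockout libraries and 2703, 2761 and 2596 CPM in the WT libraries. All PDH knockout sums lie below all WT sums. The means were 2398 ± 76.4 CPM in PDH knockout and 2687 ± 83.3 CPM in WT, a ratio of 0.892 (exact two-sided permutation p = 0.1, the smallest that 3 against 3 libraries allow). Without Slc25a3, Slc25a4 and Slc25a5, the sum was 1008 ± 17.4 CPM in PDH knockout and 1167 ± 23.9 CPM in WT, a ratio of 0.864 with no overlap of the groups (exact two-sided permutation p = 0.1).

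Of the 6 carriers of adenine nucleotides and phosphate in the table, none was called higher and 4 were called lower. The called share was 66.7%, beside 47.6% of all tested genes (23.1% higher and 24.5% lower). No group of carriers was tested against that share. The lowest log2 fold change of the family was in the calcium-regulated carriers that exchange ATP-Mg for phosphate and so set the adenine nucleotide content of the matrix. Slc25a24 (ENSMUSG00000040322.11), which encodes such a carrier, was at 14.8, 14.8 and 15.9 CPM in PDH knockout and 33.8, 29.1 and 40.2 CPM in WT. The PDH knockout values lay close together and all below the lowest WT value, with a log2 fold change of -1.18 ± 0.11 (adjusted p = 6.13e-05). Its relative Slc25a23 (ENSMUSG00000046329.15) was at 13.1, 13.1 and 14.7 CPM in PDH knockout and 29.9, 22.8 and 26.6 CPM in WT. Here too the groups did not overlap, and the change was -0.95 ± 0.11 (adjusted p = 0.000142). The third gene of this type, Slc25a25, fell less, to 19.7 ± 0.232 CPM in PDH knockout, against 24.4 ± 1.22 CPM in WT (-0.30 ± 0.07, adjusted p = 0.00828). The log2 fold change of Slc25a25 was -0.28 without the 3 libraries with more B cell markers, which leaves PDH knockout replicate 1 alone in its group.

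The ADP/ATP exchangers and the phosphate carrier, the most abundant members, had small log2 fold changes. Slc25a5 (ENSMUSG00000016319.4), the adenine nucleotide translocase gene of dividing cells, was at 764, 699 and 659 CPM in PDH knockout and 831, 885 and 763 CPM in WT. PDH knockout replicate 1 and WT replicate 3 met at the same level, which makes Slc25a5 the single called member with overlapping groups (-0.22 ± 0.08, adjusted p = 0.0414). The call was lost under upper-quartile factors (-0.15, adjusted p = 0.13) and under library totals (-0.18, adjusted p = 0.0856). Removal of PDH knockout replicate 2 or 3 or WT replicate 1 or 2 also lost it (adjusted p from 0.108 to 0.137). Its log2 fold change was -0.06 without the 3 libraries with more B cell markers, which leaves PDH knockout replicate 1 alone in its group. Slc25a4, the translocase gene of heart and muscle, was at 277 ± 23.3 CPM in PDH knockout and 272 ± 28.6 CPM in WT (0.02 ± 0.09, adjusted p = 0.836). With the same 3 libraries left out, the log2 fold change of Slc25a4 was 0.24. Slc25a3, whose product imports the phosphate for ATP synthesis and also copper, was at 406 ± 12.7 CPM in PDH knockout and 421 ± 9.88 CPM in WT (-0.05 ± 0.06, adjusted p = 0.461). The pseudogene entry Slc25a5-ps shares sequence with Slc25a5, so its counts are uncertain. It held 1, 11 and 58 counts in PDH knockout and 44, 8 and 5 counts in WT, with no order between the groups.

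Of the 6 dicarboxylate, oxoglutarate and uncoupling-type carriers, none was called higher and 4 were called lower. That is 66.7% called, beside 47.6% of all tested genes (23.1% higher and 24.5% lower). Slc25a11 (ENSMUSG00000014606.15), the oxoglutarate/malate carrier of the malate-aspartate shuttle, was at 54.5, 54.5 and 58.4 CPM in PDH knockout and 83.9, 82.8 and 69.5 CPM in WT. All PDH knockout values were below all WT values (-0.50 ± 0.08, adjusted p = 0.000899). Slc25a10 (ENSMUSG00000025792.10), which exchanges malate or succinate for phosphate, was at 18.7, 14 and 17.7 CPM in PDH knockout and 26.5, 26.7 and 22.5 CPM in WT. Its groups did not overlap (-0.58 ± 0.12, adjusted p = 0.00306). The log2 fold change of Slc25a10 was -0.39 without the 3 libraries with more B cell markers, which leaves PDH knockout replicate 1 alone in its group.

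The members of this group that resemble uncoupling proteins were lower as well where they were called. Slc25a30 was at 35.8, 29.8 and 31.5 CPM in PDH knockout and 47.1, 37.3 and 51.9 CPM in WT (-0.49 ± 0.12, adjusted p = 0.0109). WT replicate 2 was the lowest of its group and lay just above the highest PDH knockout value. Slc25a14 was at 5.03, 5.50 and 4.59 CPM in PDH knockout and 6.08, 6.73 and 7.12 CPM in WT (-0.40 ± 0.13, adjusted p = 0.0342). The groups of Slc25a14 did not overlap, yet it stayed called only on removal of PDH knockout replicate 2 among the single libraries (adjusted p from 0.0544 to 0.12 on removal of another). It was not called under upper-quartile factors (-0.32, adjusted p = 0.0791) or under library totals (-0.36, adjusted p = 0.0567). Its log2 fold change was -0.39 without the 3 libraries with more B cell markers, which leaves PDH knockout replicate 1 alone in its group. Slc25a27, at 2.65 ± 0.346 CPM in PDH knockout and 2.81 ± 0.809 CPM in WT, and the orphan Slc25a35, at 5.30 ± 0.847 CPM in PDH knockout and 5.22 ± 0.875 CPM in WT, were not called (adjusted p = 0.795 for Slc25a27 and 0.936 for Slc25a35).

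Of the 11 carriers grouped with amino acids and glutathione, 2 were called higher, 3 lower and 6 not at all, and the directions ran apart within the group. The called share, 45.5%, was near the 47.6% of all tested genes. Slc25a12 (ENSMUSG00000027010.17) encodes the aspartate/glutamate carrier that completes the malate-aspartate shuttle and is activated by calcium. It was at 53.6, 54.1 and 55.8 CPM in PDH knockout and 111, 103 and 109 CPM in WT. The WT libraries lay far above the PDH knockout libraries, with no overlap, a log2 fold change of -0.99 ± 0.06 and the smallest adjusted p among the members (8.33e-06). Slc25a13, the second gene for this exchange, fell less, to 25.4 ± 1.52 CPM in PDH knockout, against 32.5 ± 0.478 CPM in WT (-0.36 ± 0.07, adjusted p = 0.00292).

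Slc25a39 (ENSMUSG00000018677.10), the importer of glutathione into mitochondria, was at 68.5, 60.3 and 74.7 CPM in PDH knockout and 105, 104 and 95.7 CPM in WT. Every PDH knockout value was lower than every WT value (-0.58 ± 0.08, adjusted p = 0.000423). Its relative Slc25a40 was at 29.0 ± 1.98 CPM in PDH knockout and 26.0 ± 3.53 CPM in WT, with overlapping groups (0.16 ± 0.11, adjusted p = 0.234).

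The increases of this group were in Slc25a45 and Slc25a48, placed with the amino acid carriers by resemblance. Slc25a45 (ENSMUSG00000024818.16) was at 19.5, 18.5 and 20 CPM in PDH knockout and 8.89, 10.0 and 10.2 CPM in WT. The lowest PDH knockout value was well above the highest WT value (0.99 ± 0.09, adjusted p = 4.91e-05). Slc25a48 (ENSMUSG00000021509.6), which has been described as a mitochondrial choline transporter, held 53, 49 and 69 counts in PDH knockout and 1, 6 and 4 counts in WT. In CPM this is 1.31, 1.40 and 1.96 in PDH knockout and 0.0270, 0.157 and 0.0988 in WT, so the gene stayed rare in both groups. The fitted log2 fold change was 3.99 ± 0.43 (adjusted p = 0.000101), and the ratio of the summed counts per total was 16.7 (exact 95% interval 9.13 to 34.2, counting error only). Only the PDH knockout libraries reached the 10 counts that every row of the table has in at least 3 libraries. A gene with its WT counts in both groups would have no row. The p-value and interval therefore describe a gene selected through its higher group.

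The 6 members of the group that were not called include Slc25a22, a glutamate carrier, at 33.5, 33.2 and 36.8 CPM in PDH knockout and 30.9, 31.5 and 28.0 CPM in WT. Its groups did not overlap, and it missed the threshold (0.20 ± 0.08, adjusted p = 0.0579). It was called under upper-quartile factors (0.28, adjusted p = 0.0131), under library totals (0.24, adjusted p = 0.0378) and without WT replicate 2 (adjusted p = 0.0479). Slc25a15, the ornithine carrier, was at 39.8, 23.9 and 27.9 CPM in PDH knockout and 36.2, 32.0 and 36.3 CPM in WT. PDH knockout replicate 1 stood above all WT libraries and the other PDH knockout replicates below them, and without replicate 1 the gene was called lower (-0.43, adjusted p = 0.0079). Slc25a38, which brings in glycine for haem synthesis, was at 15.3 ± 0.934 CPM in PDH knockout and 17.6 ± 0.464 CPM in WT (adjusted p = 0.0721). Slc25a44, a carrier of branched-chain amino acids, was at 19.7 ± 0.693 CPM in PDH knockout and 21.5 ± 2.87 CPM in WT (adjusted p = 0.322) and was called lower without WT replicate 3 (-0.24, adjusted p = 0.0453). Slc25a29, a carrier of basic amino acids, was at 1.12 ± 0.0554 CPM in PDH knockout and 1.5 ± 0.147 CPM in WT (adjusted p = 0.117).

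**Figure D3:**
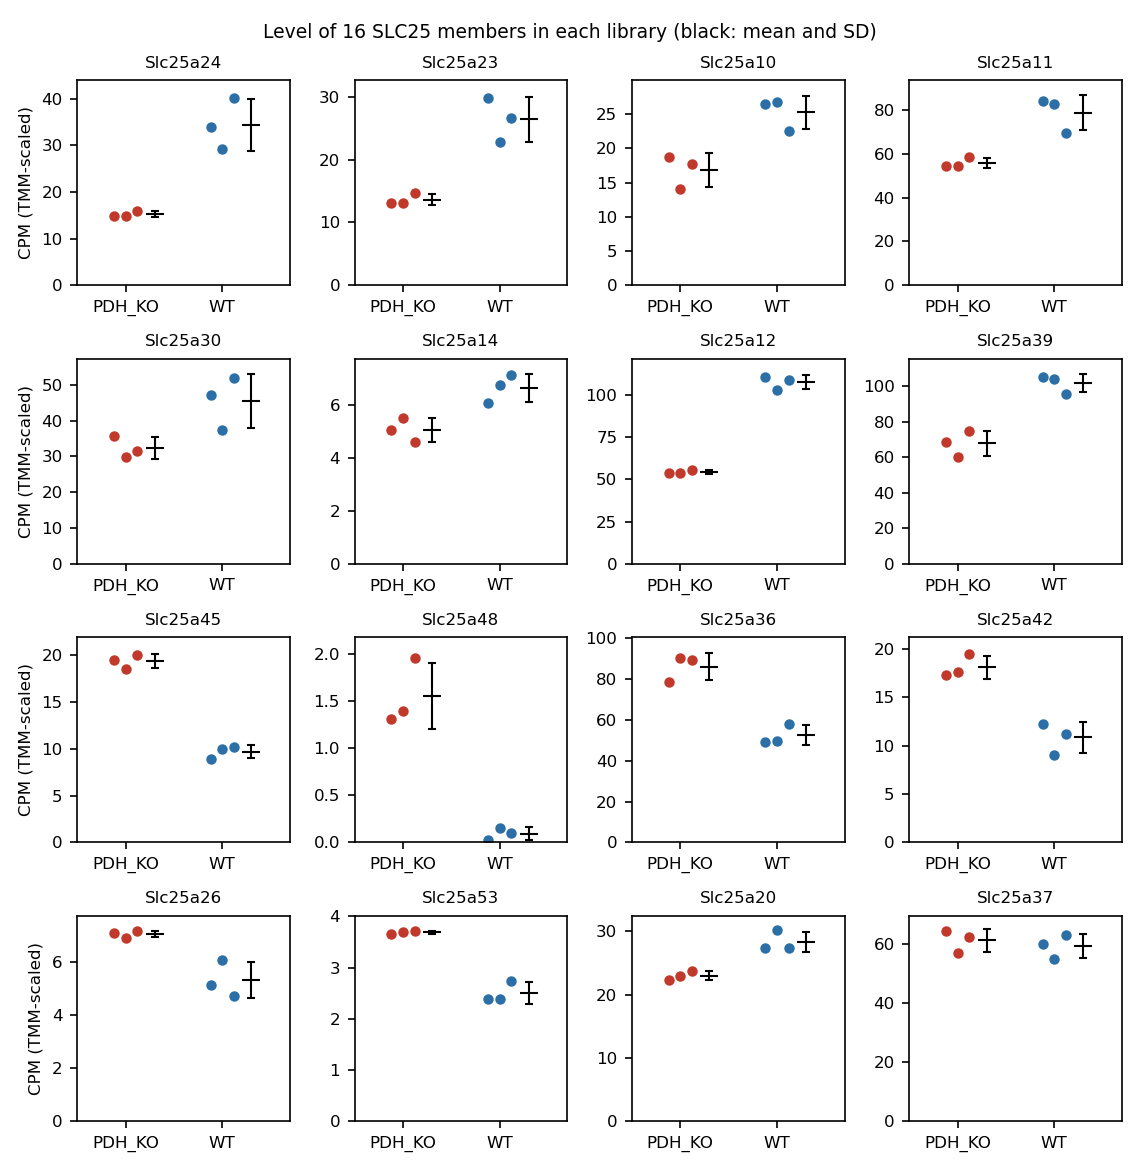
Level in CPM (vertical axis, from 0) of 16 SLC25 members in each of the 3 PDH knockout and 3 WT libraries, with mean and SD in black. Slc25a12, Slc25a23 and Slc25a24 in PDH knockout lie near 0.44 to 0.52 times their WT level, Slc25a45 near 1.99 times, and Slc25a37 overlaps.

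Of the 9 carriers of vitamins, coenzymes and pyrimidine nucleotides, 3 were called higher, 3 lower and 3 not at all. In all 66.7% were called, beside 47.6% of all tested genes. Slc25a36 (ENSMUSG00000032449.14), a pyrimidine nucleotide carrier, was at 78.7, 90.3 and 89.3 CPM in PDH knockout and 49.4, 49.8 and 58.0 CPM in WT. The groups were far apart (0.72 ± 0.08, adjusted p = 0.00016). Slc25a42 (ENSMUSG00000002346.17), which exchanges coenzyme A for adenine nucleotides, was at 17.3, 17.6 and 19.5 CPM in PDH knockout and 12.3, 9.09 and 11.2 CPM in WT. All PDH knockout values exceeded all WT values (0.73 ± 0.12, adjusted p = 0.000945). Slc25a26, the importer of S-adenosylmethionine, was at 7.10, 6.93 and 7.17 CPM in PDH knockout and 5.16, 6.08 and 4.74 CPM in WT (0.41 ± 0.13, adjusted p = 0.0309). The groups did not overlap, but among the single libraries it stayed called only on removal of WT replicate 2 (adjusted p from 0.0717 to 0.106 on removal of another).

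The decreases among the coenzyme carriers were small. Slc25a16, linked to coenzyme A supply, was at 20.9 ± 1.05 CPM in PDH knockout and 25.5 ± 1.00 CPM in WT (-0.29 ± 0.08, adjusted p = 0.0115). Its log2 fold change was -0.26 without the 3 libraries with more B cell markers, which leaves PDH knockout replicate 1 alone in its group. Slc25a17, the coenzyme carrier of the peroxisome, was at 63.6, 84.2 and 76.2 CPM in PDH knockout and 91.7, 86.1 and 89.0 CPM in WT (-0.25 ± 0.09, adjusted p = 0.0491). PDH knockout replicate 2 lay just below WT replicate 2, the lowest of its group. Among the single libraries it stayed called only on removal of PDH knockout replicate 2 (adjusted p from 0.0787 to 0.135 on removal of another), and the log2 fold change was -0.15 without PDH knockout replicate 1. It was not called under upper-quartile factors (-0.17, adjusted p = 0.16), under library totals (-0.21, adjusted p = 0.0709) or by limma-voom (-0.26, adjusted p = 0.0569). With the 3 libraries with more B cell markers left out, the log2 fold change of Slc25a17 was -0.50. Slc25a51, the importer of NAD, was at 54.7 ± 1.32 CPM in PDH knockout and 62.7 ± 3.19 CPM in WT (-0.20 ± 0.06, adjusted p = 0.0252). It was not called under upper-quartile factors (-0.12, adjusted p = 0.163) or library totals (-0.15, adjusted p = 0.103), or on removal of PDH knockout replicate 2 or 3 or WT replicate 1 or 3 (adjusted p from 0.0584 to 0.112). With the 3 libraries with more B cell markers left out, the log2 fold change of Slc25a51 was -0.20.

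Slc25a32, a carrier of folate and FAD, was at 38.9 ± 1.69 CPM in PDH knockout and 40 ± 1.6 CPM in WT (adjusted p = 0.667). Slc25a33, the second pyrimidine nucleotide carrier, was at 8.99, 7.76 and 7.93 CPM in PDH knockout and 10.1, 10.5 and 8.94 CPM in WT (-0.26 ± 0.12, adjusted p = 0.0905).

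The iron carriers did not pass in either direction. Slc25a37 (ENSMUSG00000034248.8), mitoferrin 1, was at 64.3, 56.9 and 62.5 CPM in PDH knockout and 60.0, 55.0 and 62.9 CPM in WT (0.05 ± 0.07, adjusted p = 0.633). Slc25a28, mitoferrin 2, was at 21.8 ± 0.7 CPM in PDH knockout and 22.5 ± 2.08 CPM in WT (-0.04 ± 0.09, adjusted p = 0.708). Both genes had overlapping groups, and none of the 6 erythroid markers looked up has a row in the table.

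Slc25a20 (ENSMUSG00000032602.7), the carnitine-acylcarnitine exchanger that brings fatty acyl groups to β-oxidation, was at 22.3, 23.0 and 23.7 CPM in PDH knockout and 27.4, 30.2 and 27.3 CPM in WT. The PDH knockout values all lay below the WT values (-0.30 ± 0.07, adjusted p = 0.00874). The log2 fold change was -0.29 without the 3 libraries with more B cell markers, which leaves PDH knockout replicate 1 alone in its group. Slc25a47, a carrier known chiefly from liver, was at 2.66 ± 0.391 CPM in PDH knockout and 2.68 ± 0.268 CPM in WT (adjusted p = 0.975).

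Among the members without an assigned substrate, Slc25a53 (ENSMUSG00000044348.15) was at 3.66, 3.69 and 3.71 CPM in PDH knockout and 2.38, 2.38 and 2.74 CPM in WT. Its groups did not overlap (0.56 ± 0.16, adjusted p = 0.016). The call was lost without PDH knockout replicate 3 (0.55, adjusted p = 0.0528) and without WT replicate 1 (0.52, adjusted p = 0.0678). Its log2 fold change was 0.52 without the 3 libraries with more B cell markers, which leaves PDH knockout replicate 1 alone in its group. Slc25a46, an outer membrane protein that acts on mitochondrial shape, was at 72.1 ± 1.04 CPM in PDH knockout and 68.8 ± 3.76 CPM in WT (0.07 ± 0.06, adjusted p = 0.38), and was called higher under upper-quartile factors (0.15, adjusted p = 0.0492). Slc25a43 was at 0.407 ± 0.155 CPM in PDH knockout and 0.409 ± 0.163 CPM in WT.

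For 10 pairs of members with like substrates, the ratio of their counts was taken within each library, which removes the scaling between libraries. In 6 of the 10 pairs the PDH knockout ratios did not overlap the WT ratios. Each of these reached the smallest exact two-sided permutation p that 3 against 3 libraries allow, 0.1, or 0.167 after adjustment over the 10 pairs, so no pair can pass 0.05 in this design. Of all tested genes taken singly, 58.2% had groups that did not overlap, so lack of overlap is common in these data. The share among other pairs of genes was not computed. The pairs Slc25a25/Slc25a24 and Slc25a23/Slc25a24 have a gene in common.

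Slc25a33 stood at 0.114, 0.0859 and 0.0888 times the counts of Slc25a36 in PDH knockout and at 0.205, 0.211 and 0.154 times in WT, a difference of -0.98 in the log2 ratio. The ratio of Slc25a25 to Slc25a24 changed side: it was 1.31, 1.34 and 1.25 in PDH knockout, all above 1, and 0.690, 0.884 and 0.598 in WT, all below 1. Slc25a39 held 2.20, 2.20 and 2.64 times the counts of Slc25a40 in PDH knockout and 3.88, 4.71 and 3.32 times in WT. For the aspartate/glutamate carriers, Slc25a12 held 2.19, 1.99 and 2.28 times the counts of Slc25a13 in PDH knockout and 3.42, 3.13 and 3.42 times in WT. All these groups were apart, and the log2 differences were 0.87 for Slc25a25/Slc25a24, -0.75 for Slc25a39/Slc25a40 and -0.63 for Slc25a12/Slc25a13. Smaller differences without overlap were seen for Slc25a4/Slc25a5 (0.25) and Slc25a23/Slc25a24 (0.22). The separation of Slc25a23/Slc25a24 is thin, with a lowest ratio of 0.886 in PDH knockout and a highest ratio of 0.884 in WT, and its difference was 0.11 without WT replicate 3. The mitoferrin pair Slc25a28/Slc25a37 (-0.09) and the pairs Slc25a10/Slc25a11 (-0.10), Slc25a14/Slc25a30 (0.08) and Slc25a51/Slc25a32 (-0.16) overlapped.

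**Figure D4:**
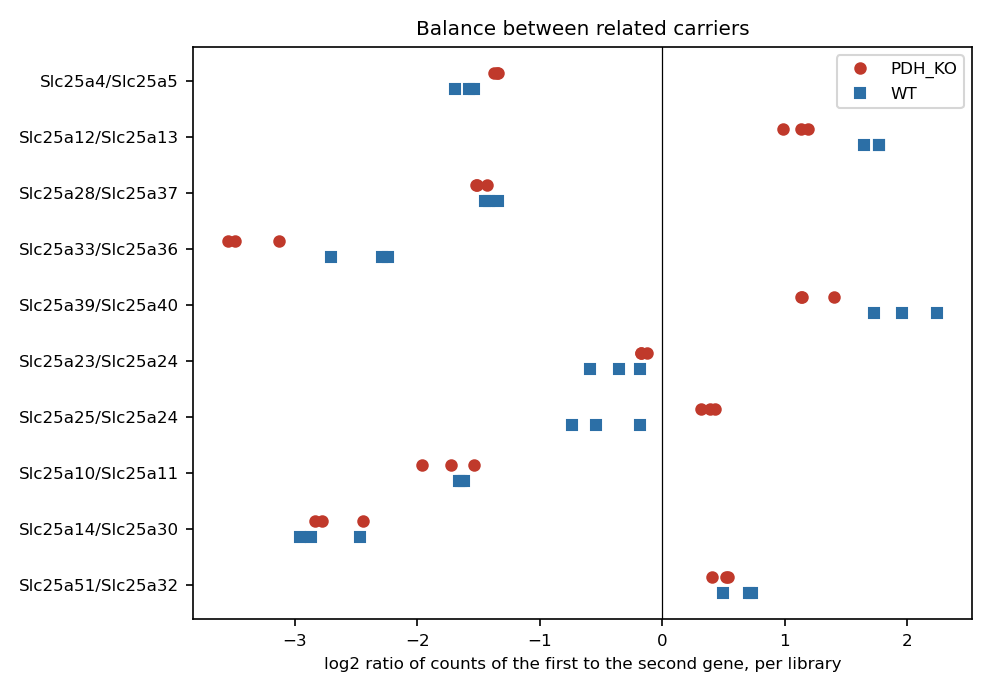
Log2 ratio of the counts of the first to the second gene (horizontal axis) in each PDH knockout and WT library for 10 pairs of related carriers. The groups lie apart in 6 pairs. The difference of the group means is largest in size for Slc25a33/Slc25a36 (-0.98), and the points of Slc25a25/Slc25a24 fall on opposite sides of equality.

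The promoters of the members were searched for short motifs, and those with a match are shown so that the letters can be set beside the direction of each gene. RefSeq promoter entries on GRCm38.p6 were matched by symbol for 30 of the 40 members, with 39 start sites; the build used for the counts is not given in the sources used here. In the 250 bases before each start, both strands were searched for the E box CACGTG (bound by MYC/MAX and other basic helix-loop-helix factors), the CRE TGACGTCA (bound by CREB and ATF factors), the AARE core TGATGNAAT (bound by ATF4 complexes), the NRF1 core GCGCATG and the TATA box TATAAA. None of these motifs overlapped another in a member's promoter. The E box was in 6 of the 39 member promoters, 15.4%, beside 6.02% of all 32851 promoters of the table. These promoters belong to 5 of the 30 genes, because start sites of Slc25a14 share a match. The 32851 promoters include genes that were not tested here. The CRE was in 2 of them, 5.13%, beside 1.55% of all promoters. The AARE core, the NRF1 core and the TATA box were in none, beside 0.816%, 3.24% and 12.4% of all promoters. The median GC content was 57.2% in the member promoters and 52.4% in all promoters. The median ratio of observed to expected CpG was 0.541 in member promoters and 0.373 in all promoters. The E box, the CRE and the NRF1 core each hold a CpG, and the shares were not adjusted for this. A match is a match of letters and does not show binding.

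Slc25a36, the called increase of the pyrimidine pair, was the only member whose upstream 250 bases held an E box and a CRE (both in capitals), at chr9:97111042-97111291 on the minus strand of GRCm38.p6:
Slc25a36: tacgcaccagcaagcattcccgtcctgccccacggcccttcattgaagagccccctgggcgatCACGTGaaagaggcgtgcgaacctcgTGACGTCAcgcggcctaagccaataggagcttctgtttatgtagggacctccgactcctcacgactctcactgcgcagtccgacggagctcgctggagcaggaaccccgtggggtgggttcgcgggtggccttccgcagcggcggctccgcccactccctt

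The other matches are shown with the bases around them, the motif in capitals. They are the E boxes of Slc25a33 (chr4:149774268-149774292, minus strand), Slc25a13 (chr6:6217276-6217315, minus strand), Slc25a14 (chrX:48623377-48623416, plus strand, shared by 2 of its start sites) and Slc25a15 (chr8:22398332-22398371, minus strand), and the CRE of Slc25a25 (chr2:32424192-32424233, minus strand).
Slc25a33: cacggcccggcctccgcCACGTGac
Slc25a13: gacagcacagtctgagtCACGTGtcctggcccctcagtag
Slc25a14: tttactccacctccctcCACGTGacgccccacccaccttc
Slc25a15: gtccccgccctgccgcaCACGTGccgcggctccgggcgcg
Slc25a25: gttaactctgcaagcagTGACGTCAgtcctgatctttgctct

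The members with an E box did not move together. Slc25a36 rose by 0.72 on the log2 scale, Slc25a13 and Slc25a14 fell by 0.36 and 0.40, and Slc25a15 and Slc25a33 were not called. Of the CRE genes, Slc25a36 rose and Slc25a25 fell by 0.30. Slc25a12, Slc25a23, Slc25a24 and Slc25a45 held none of the 5 motifs in this window.

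Genes that work beside the carriers were read from the same test. For comparison with each count that follows, 23.1% of all tested genes were called higher and 24.5% lower. Of 4 family members outside the selection (Slc25a1, Ucp2, Mtch1 and Mtch2), Slc25a1 and Mtch2 were lower and none was higher: Mtch2, an insertase of the outer membrane, was at 85.9 ± 2.57 CPM in PDH knockout and 114 ± 2.18 CPM in WT (-0.41 ± 0.05, adjusted p = 0.000314), and Slc25a1 changed by -0.31 ± 0.08 (adjusted p = 0.00895). Ucp2, the uncoupling protein of lymphocytes, was at 543 ± 45.4 CPM in PDH knockout and 477 ± 33.9 CPM in WT (adjusted p = 0.0803). Of 26 other transporters of mitochondria or their substrates, 1 was higher and 12 were lower. Tspo, an outer membrane protein that binds cholesterol, was at 30.3 ± 1.12 CPM in PDH knockout and 59.2 ± 2.67 CPM in WT (-0.97 ± 0.07, adjusted p = 1.61e-05), the channel gene Vdac2 fell by 0.51 and Abcb10, an inner membrane transporter tied to haem synthesis, by 0.78 on the log2 scale. The pyruvate carrier genes were not called: Mpc1 was at 90.3 ± 1.07 CPM in PDH knockout and 96.7 ± 3.85 CPM in WT (adjusted p = 0.168), and Mpc2 at 23.6 ± 2.48 CPM in PDH knockout and 26.2 ± 1.61 CPM in WT (adjusted p = 0.214).

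Of 7 enzymes of the malate-aspartate and glycerol phosphate shuttles, 5 were lower and none higher. The genes of the malate-aspartate enzymes Got1, Got2 and Mdh1 were lower by the side of their carriers Slc25a11, Slc25a12 and Slc25a13, with log2 fold changes of -0.81 ± 0.07, -0.54 ± 0.05 and -0.48 ± 0.06. Of 7 carnitine system genes, 1 was higher and 4 were lower. Cpt1a, which makes the acylcarnitine that Slc25a20 takes in, and Crot, its peroxisomal counterpart, fell by 0.62 and 0.44. Cpt1c, a brain-type relative, was at 14 ± 5.42 CPM in PDH knockout and 2.07 ± 0.324 CPM in WT (2.75 ± 0.33, adjusted p = 0.000734).

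Of 21 genes of coenzyme and one-carbon metabolism, 8 were higher and 1 was lower. Ppcs, which encodes a step of coenzyme A synthesis, was at 20.3 ± 0.788 CPM in PDH knockout and 13.3 ± 0.985 CPM in WT (0.61 ± 0.09, adjusted p = 0.000505), beside the rise of the coenzyme A carrier gene Slc25a42. Slc19a2, a thiamine importer of the plasma membrane, changed by 0.84 ± 0.11 (adjusted p = 0.000348). Nmnat3, an enzyme of NAD synthesis, changed by 0.90 ± 0.10 (adjusted p = 0.000104), while the NAD carrier gene Slc25a51 was lower by 0.20 on the log2 scale.

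Of 16 genes of iron-sulfur and haem synthesis, 3 were higher and 5 lower. Iba57, an assembly factor, was at 19.0 ± 0.583 CPM in PDH knockout and 9.85 ± 1.51 CPM in WT (0.95 ± 0.12, adjusted p = 0.000204), whereas Isca2 and Lyrm4, which act in the same assembly, fell by 0.63 and 0.50. Of 10 glutathione, ornithine and urea cycle genes, 1 was higher and 5 were lower. Gpx4, the glutathione peroxidase of membrane lipids, was at 102 ± 6.58 CPM in PDH knockout and 178 ± 6.64 CPM in WT (-0.80 ± 0.06, adjusted p = 2.72e-05), and Asl and Ass1, which make arginine from citrulline, fell by 0.85 and 0.52. Over all 91 such genes with a row, 14 were called higher and 34 lower, 52.7% in all. Of all tested genes 47.6% were called, 23.1% higher and 24.5% lower.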

How the data were processed

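Messenger RNA of 6 Th17 cell libraries, 3 PDH knockout and 3 WT, was sequenced after a stranded preparation, per the labels' protocols. The deposited table holds estimated counts per gene as whole numbers. Salmon and DESeq2 are named in the submitters' processing notes, with no version, and neither label nor file header gives the genome build or annotation. Every row has at least 10 counts in at least 3 libraries. Of 15452 gene IDs, 15138 were given symbols from the annotation table and 314 were not matched.

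Counts were tested with edgeR 4.0.16 in R 4.3.3 (TMM factors, filterByExpr, robust quasi-likelihood fit, genotype as the only term) on 15361 genes. The procedure was tested on simulated data. CPM per kb uses the longest protein-coding transcript, which need not be the one expressed. Groups follow the labels. The values of 1 member are not reported here, though counts and sums over the family include it. Library totals of 33802154 to 40407124 counts leave CPM of rare genes imprecise: 3 counts are 0.074 to 0.089 CPM. Intervals cover counting error only. Replicate libraries of each group differed by more than sampling noise (chi-square per degree of freedom 24.05 to 153.67).

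Members and gene lists were chosen with earlier results of these data known. Values in every library are given for called members with a log2 fold change of 0.4 or more in size, at 2 decimals, for the most abundant member of a role group without one, and for members whose libraries disagree; other genes of a pathway are named by up to 3 smallest p-values, and Slc25a1, Ucp2, Mpc1 and Mpc2 were named by choice. Alternatives were other scalings and filters, DESeq2 1.42.0, limma-voom 3.58.1, a 1.2-fold test, a replicate block and left-out libraries.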

Additional observations from a re-analysis of the deposited data

How the results depend on the processing

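Called members numbered 21 in the main analysis, 10 in the test against 1.2-fold, and 15 to 19 when 1 library was left out. All genes called numbered 7311, with 3981 in the 1.2-fold test and 5524 to 6961 with 1 library left out; the partner genes gave 48, 27 and 40 to 47 in the same order. Of the called members, 42.1% were higher under upper-quartile factors and 38.9% under library totals, against 28.6% in the main analysis; over all genes these shares were 60.0%, 55.0% and 48.5%. The median log2 fold change of the members was -0.06 under upper-quartile factors and -0.22 without the 3 libraries with more B cell markers, against -0.14; over all genes it was 0.09 and 0.00, against 0.01, so the members' median lay 0.15 below that of all genes under upper-quartile factors and in the main analysis. Slc25a11, Slc25a12, Slc25a23, Slc25a24, Slc25a36, Slc25a39, Slc25a42, Slc25a45 and Slc25a48 were called in every alternative in which they were tested. The cause of the changes was not tested. The labels do not say whether same-numbered samples form pairs. The correlations of same-numbered deviations (-0.0982, 0.0925 and -0.259) cannot settle this with 3 libraries per group. A replicate block called 20 members, 6 higher and 14 lower, and 3473 genes higher and 3745 lower.

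Sign changes were limited to members that were not called and to pairs whose groups overlap. Under upper-quartile factors, the log2 fold change was 0.02 for Slc25a3, 0.03 for Slc25a28, 0.04 for Slc25a32, 0.07 for Slc25a43 and 0.07 for Slc25a47. Under library totals it was 0.01 for Slc25a32, 0.04 for Slc25a43 and 0.03 for Slc25a47, and with at least 50 counts in 3 libraries it was 0.00 for Slc25a28, 0.01 for Slc25a32 and 0.04 for Slc25a47. Without the 3 libraries with more B cell markers it was 0.14 for Slc25a15, -0.33 for Slc25a35, 0.12 for Slc25a47 and -4.54 for Slc25a5-ps, which was at -0.33 by limma-voom. With 1 library left out, the ranges were -0.30 to 0.10 for Slc25a27, -0.11 to 0.12 for Slc25a35, -0.01 to 0.09 for Slc25a37, -0.04 to 0.11 for Slc25a4, -0.31 to 0.35 for Slc25a43, -0.11 to 0.10 for Slc25a47 and -1.6 to 1.95 for Slc25a5-ps. The log2 ratio difference ranged from -0.20 to 0.01 for Slc25a10/Slc25a11 and from -0.04 to 0.23 for Slc25a14/Slc25a30. The minimum of 50 counts removed 3 members, and depth limits Slc25a29, Slc25a48, Slc25a43 and Slc25a5-ps, with under 70 counts in each library.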
